A study of Homo sapiens with 9 samples.

Results

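Transcripts of 44 genes for Wnt ligands, Wnt receptors and secreted Wnt antagonists were followed in HEK293 cells after knock-down of SmcHD1, a chromatin protein of the SMC family. The members were 19 Wnt ligands, 10 Frizzled receptors, the co-receptors LRP5 and LRP6, the receptors ROR1, ROR2 and RYK, and 10 secreted antagonists. They were found by the RefSeq accession of their array probes, and all 44 were on the array, with 51 probes, among 19483 genes that could be named in this way. HEK293 is a line derived from human embryonic kidney. In each group the cells carried a puromycin-selected retroviral vector with GFP and an shRNA, and were grown without further treatment. KD3 cells expressed shRNA 3 and KD4 cells shRNA 4, both directed against SmcHD1, and CTL cells expressed the control shRNA NC5. All groups thus shared the vector and the selection. Each group was measured on 3 one-color Agilent arrays as infected cell populations. The methods call these biological triplicates, but the sources used here do not tell whether the 3 came from separate infections. All p-values therefore measure the spread between these arrays, which may be partly technical. The signal of a transcript was the log2 of the background-subtracted spot intensity after quantile normalization over the 9 arrays.

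Wnt proteins are secreted lipid-modified ligands that bind Frizzled receptors on the cell surface. With LRP5 or LRP6 as co-receptor they stabilize β-catenin, which activates target genes together with TCF/LEF factors, whereas ROR1, ROR2 and RYK take part in signalling without β-catenin. SFRP proteins, FRZB and WIF1 bind the ligands outside the cell, and DKK1 blocks LRP5 and LRP6.

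The hairpins that set the groups apart were designed sequences of 68 bases, shown because each knock-down rests on a single one. The capitals mark the 9-base loop between the arms of the hairpin.
CTL: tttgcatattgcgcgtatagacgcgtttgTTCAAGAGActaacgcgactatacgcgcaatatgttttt
KD3: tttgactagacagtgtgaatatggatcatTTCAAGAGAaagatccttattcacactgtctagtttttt
KD4: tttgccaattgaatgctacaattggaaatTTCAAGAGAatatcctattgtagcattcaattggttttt

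Promoters are shown for 4 members whose signal moved the same way in both knock-downs. WNT3A (at 1 of its 2 probes), DKK1 and WIF1 were lower, and FZD5 was higher. Each is the 250 bases before the annotated start, 5′ to 3′ on the strand of the gene, from RefSeq (GRCh38.p14), at chr1:228006748-228006997 (plus strand, WNT3A), chr10:52314031-52314280 (plus strand, DKK1), chr12:65121306-65121555 (minus strand, WIF1) and chr2:207769907-207770156 (minus strand, FZD5). Capitals mark CG dinucleotides, the sites of DNA methylation, in WNT3A, WIF1 and FZD5. In DKK1 they mark letters of the TCF/LEF recognition word.
WNT3A: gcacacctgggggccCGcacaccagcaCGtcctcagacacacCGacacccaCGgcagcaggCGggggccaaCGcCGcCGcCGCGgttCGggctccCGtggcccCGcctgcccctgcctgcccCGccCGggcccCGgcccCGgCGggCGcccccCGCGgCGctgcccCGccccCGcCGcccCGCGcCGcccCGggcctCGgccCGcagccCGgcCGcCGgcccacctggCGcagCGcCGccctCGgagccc
DKK1: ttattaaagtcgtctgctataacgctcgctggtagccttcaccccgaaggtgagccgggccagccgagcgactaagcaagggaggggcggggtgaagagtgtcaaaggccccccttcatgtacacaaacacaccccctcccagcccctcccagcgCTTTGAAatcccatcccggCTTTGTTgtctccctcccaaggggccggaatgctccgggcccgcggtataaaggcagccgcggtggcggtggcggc
WIF1: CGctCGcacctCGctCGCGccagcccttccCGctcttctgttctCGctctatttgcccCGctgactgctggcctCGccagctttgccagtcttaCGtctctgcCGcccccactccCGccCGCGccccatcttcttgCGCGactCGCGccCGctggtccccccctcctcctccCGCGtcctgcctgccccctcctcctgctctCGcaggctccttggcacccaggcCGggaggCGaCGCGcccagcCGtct
FZD5: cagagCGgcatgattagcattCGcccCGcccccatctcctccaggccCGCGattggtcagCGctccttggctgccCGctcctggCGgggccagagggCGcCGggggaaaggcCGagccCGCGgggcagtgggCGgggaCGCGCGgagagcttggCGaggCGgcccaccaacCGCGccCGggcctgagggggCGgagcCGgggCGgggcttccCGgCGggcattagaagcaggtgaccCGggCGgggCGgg

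The window held 38 CG in WNT3A, 18 in DKK1, 27 in WIF1 and 30 in FZD5. Over the 34 promoter entries of the 31 members with an entry, the number of CG ran from 3 to 44 with a median of 24, against a median of 11 over 35116 human promoters. The 13 members without an entry included FZD6, FZD10 and WNT11, whose changes are described below. The letters CTTTG followed by AA, AT, TA or TT, a TCF/LEF recognition word, were searched on both strands, and 12% of all promoters held at least 1 such word. Among the 34 entries of members 1 did, that of DKK1, with 2 matches on the strand of the gene. A match is a description of letters and not of binding, and binding and methylation were not measured on these arrays.

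SMCHD1 itself was lower on every knock-down array. At the brightest of its 3 probes the log2 signal was between 11.20 and 11.37 on the CTL arrays, between 10.16 and 10.40 in KD3 and between 9.63 and 9.80 in KD4. This left 51.0% of the CTL signal in KD3 and 34.6% in KD4 (limma adjusted p = 0.000214 and 1.81e-05), and all 3 probes were called in both. On an array 75.1% to 79.8% of the 42405 probes stood well above background, no spot was saturated, and replicate arrays correlated with a Pearson r of at least 0.995. All 8 genes of a list of HEK293 markers were measurable, and 3 were called in KD3 and 2 in KD4, all lower. Of all genes, 3.15% were called lower in KD3 and 4.13% in KD4. The brighter probe of the kidney factor PAX2 had log2 changes of -2.41 in KD3 and -2.65 in KD4, and its dimmer probe -0.01 and 0.06. The neuronal markers NEFM (-1.21 and -1.24), ENO2 (-0.90 and -0.69) and NEFL (-0.33 and -0.41) were also lower at the adjusted p, KRT18 was higher in KD4 (0.34), and VIM, KRT8 and CDH2 did not pass the test. Their part in the results below was not tested. Among markers of blood, liver, endothelium and muscle, ALB, APOB, HBB, PECAM1 and MYH2 were not measurable, and PTPRC, CD3E, CDH5 and ACTN2 had probes above background. In cell populations, fewer cells with a transcript and less transcript per cell cannot be told apart.

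To find which members of the family were measurable, probes were tested only if they were well above background on all 3 arrays of at least 1 group, which 34 of the 44 members passed. Among these were 12 of the 19 ligands, all 10 Frizzled receptors, both LRP co-receptors, ROR1, ROR2 and RYK, and 7 of the 10 antagonists. Of the 34, 31 were above background on all 9 arrays. The exceptions were WNT7B (3 CTL, 2 KD3 and 2 KD4 arrays), WNT8B (3, 3 and 2 arrays) and the antagonist DKK4 (2, 3 and 2 arrays). The remaining 10 were not well above background in any group as a whole. WNT8A, WNT10A, SFRP5 and DKK2 were not so on any array, and WNT1, WNT2, WNT4, WNT7A, WNT9A and SFRP4 on 1 to 4 arrays. The probes of the receptors were thus measurable without exception, and those of the ligands in part. Passing this filter does not by itself show expression, since the blood marker PTPRC passed it too. Its brighter probe had a mean log2 signal of 7.30 in CTL, and members below that in CTL included WIF1 (6.47) and DKK1 (6.68).

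A gene was called when groups differed at least 1.8-fold with a limma p under 0.05 after Benjamini-Hochberg adjustment over all 32277 tested probes, on the brightest tested probe of the gene. In KD3, 7 of the 34 members were called, where 4.44% of all 16083 genes tested were called. Of these, 2 were higher (1.29% of all genes) and 5 lower (3.15% of all genes). In KD4, 7 members were called as well, against 5.59% of all genes, again 2 higher (1.46% of all genes) and 5 lower (4.13% of all genes). The Frizzled receptors FZD6 and FZD10 were higher in both knock-downs. The ligand WNT3A, at 1 of its 2 probes, and the antagonists DKK1 and WIF1 were lower in both. WNT6 and WNT11 were called in KD3, and WNT3 and WNT8B in KD4. Both comparisons use the same CTL arrays, so that a deviation of these arrays enters both. The 2 slides each held arrays of all groups, and the 14 called differences kept their sign within each slide. They had to, since the compared groups did not overlap in any of them. With the slide as a block 6 members were called in KD3 and 7 in KD4. With normexp background correction FZD6 was called in KD3, and WNT3 and FZD10 in KD4. After adjustment, the methods' t-test called WNT3A, WNT6 and DKK1 in KD3, and WNT3A and WIF1 in KD4.

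With the adjusted p alone, 17 members differed from CTL in KD3, against 25.2% of all genes. Of them 4 were higher, against 10.4% of all genes, and 13 lower, against 14.8%. In KD4, 20 members differed, against 34.5% of all genes, with 3 higher (14.7% of all genes) and 17 lower (19.8% of all genes). Over the 34 members the middle log2 fold change (median) was -0.25 for KD3 and -0.27 for KD4, whereas for all genes it was -0.01 and 0.00. The members thus lay mostly below CTL, 23 of 34 by sign in KD3 and 26 of 34 in KD4. Of all 16083 genes, 8425 did so in KD3 and 8004 in KD4. These counts use the brightest probe, a choice that favoured a decrease in WNT3A and DKK3, as described below. The filter also enters them, since WNT7B passed it through CTL alone and DKK4 through KD3 alone. The dimmer tested probes of DKK3 and ROR1 lay above CTL in both knock-downs, and those of WNT3A and ROR2 in KD4.

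**Figure D1:**
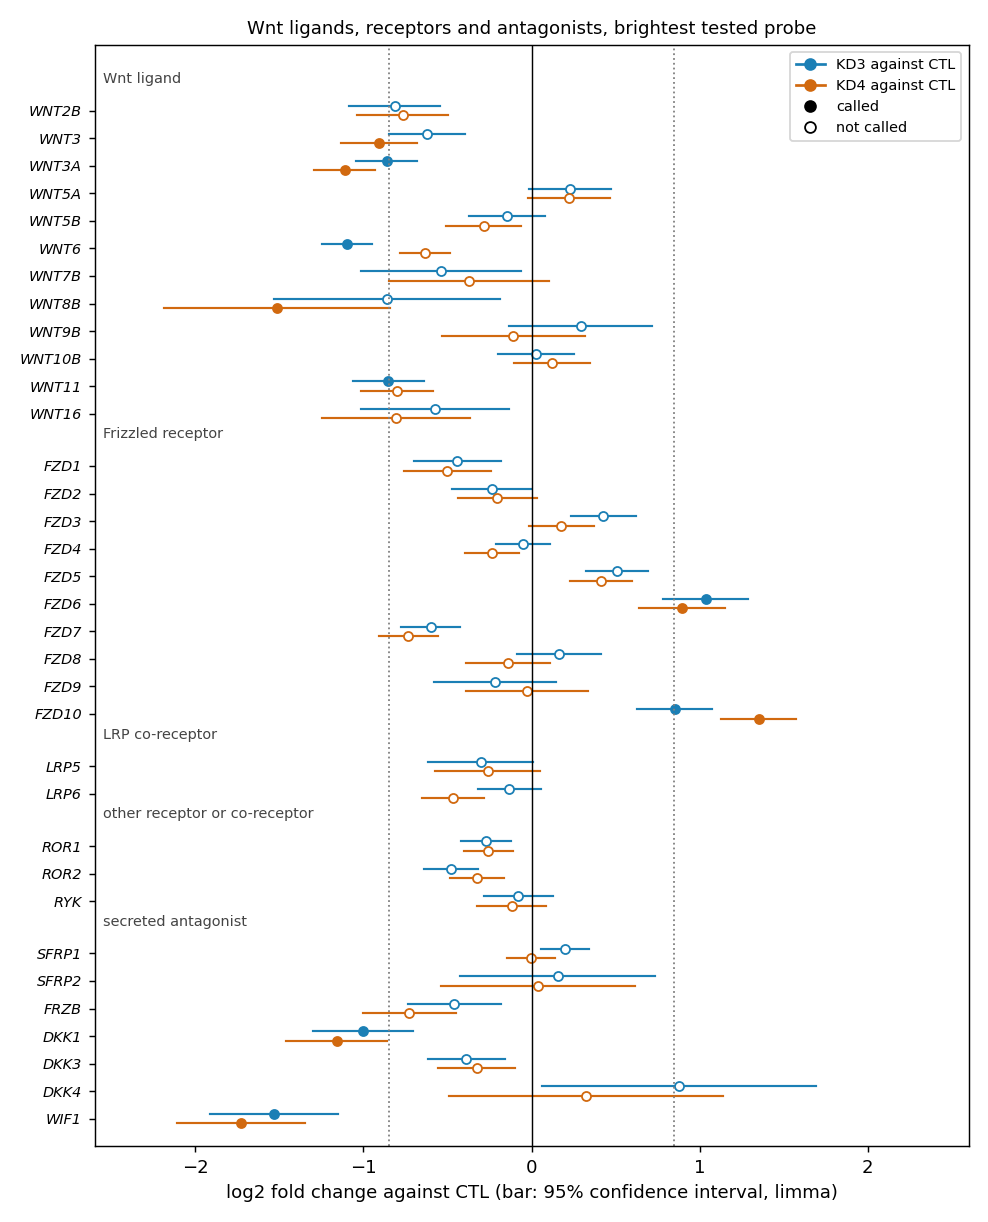
Log2 fold change against CTL (x axis) of the brightest probe of each of the 34 measurable members, grouped by role, in KD3 (blue) and KD4 (orange), with bars for the 95% confidence interval from limma, filled points for called genes and dotted lines at a fold of 1.8. FZD6 and FZD10 lie to the right in both knock-downs, and WNT3A, DKK1 and WIF1 to the left in both.

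Among the 12 measurable ligands no transcript was higher and 5 fell in KD3 and 7 in KD4 by the adjusted p. Of all genes, 14.8% were lower in KD3 and 19.8% in KD4, and 10.4% and 14.7% were higher. WNT3A, which acts through β-catenin, had log2 signals of 8.91, 9.07 and 9.04 on the CTL arrays, 8.16, 8.24 and 8.03 in KD3, and 7.89, 7.93 and 7.86 in KD4. Every knock-down array lay below every CTL array. Relative to CTL the log2 change came to -0.86 in KD3 (limma adjusted p = 0.000216, standard error 0.0798) and -1.11 in KD4 (adjusted p = 4.63e-05), which left 55% and 46.3% of the CTL signal. These values belong to the brighter of 2 probes, which led through CTL alone. The other one did not show the difference, as described below. The KD3 value was close to the fold threshold and fell short of it without KD3 replicate 3 (-0.80), without CTL replicate 2 (-0.83), without CTL replicate 3 (-0.84) and with the slide as a block (-0.83). After normexp correction the other WNT3A probe was the brighter one, while the probe described here still passed in KD4 (-0.93).

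WNT3, the closest relative of WNT3A, had log2 signals of 10.57, 10.84 and 10.90 in CTL, 10.23, 10.18 and 10.04 in KD3, and 9.87, 9.82 and 9.90 in KD4. The groups did not overlap. Relative to CTL the log2 change came to -0.62 in KD3 (limma adjusted p = 0.00336), below the fold threshold, and -0.91 in KD4 (standard error 0.0997, adjusted p = 0.000404). The call in KD4 was lost without CTL replicate 3, with -0.84. WNT9B, its neighbour on the chromosome in the RefSeq annotation, did not pass the test (0.29 and -0.11, adjusted p = 0.322 and 0.698).

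WNT6 was the ligand with the most precise difference in KD3. Its log2 signals were 7.82, 7.90 and 7.85 in CTL, 6.83, 6.72 and 6.74 in KD3, and 7.16, 7.27 and 7.24 in KD4. The 3 groups were separate, with KD3 lowest. Relative to CTL the log2 change came to -1.10 in KD3 (limma adjusted p = 2.32e-05, standard error 0.0657) and -0.63 in KD4 (adjusted p = 0.000303). WNT10A, the gene next to WNT6 in the annotation, did not rise well above background anywhere.

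WNT11, a ligand known from β-catenin-independent signalling, had log2 signals of 7.23, 7.47 and 7.39 in CTL, 6.64, 6.53 and 6.36 in KD3, and 6.56, 6.60 and 6.53 in KD4. Both knock-downs lay below CTL without overlap and overlapped each other. Relative to CTL the log2 change came to -0.85 in KD3 (limma adjusted p = 0.000505) and -0.80 in KD4 (adjusted p = 0.00056), on either side of the fold threshold. The direct difference between KD4 and KD3 was 0.05, with a 95% confidence interval from -0.16 to 0.27. In KD3 the value fell short of the threshold without KD3 replicate 3 (-0.78), CTL replicate 2 (-0.80) or CTL replicate 3 (-0.84), and with the slide as a block (-0.83).

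WNT8B was close to background on part of the arrays. Its log2 signals were 5.36, 5.27 and 4.80 in CTL, 4.32, 4.46 and 4.08 in KD3, and 4.36, 3.37 and 3.16 in KD4. CTL lay above both knock-downs, but the KD4 arrays spread widely, with a standard deviation of 0.64 against 0.30 in CTL. Relative to CTL the log2 change came to -1.51 in KD4 (limma adjusted p = 0.00613, standard error 0.295) and -0.86 in KD3 (adjusted p = 0.0755). With normexp background correction it shrank to -0.44 in KD4.

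WNT2B was lower in both knock-downs but below the fold threshold, with log2 fold changes of -0.81 in KD3 and -0.77 in KD4 (limma adjusted p = 0.00218 and 0.00215). Its log2 signals were 7.38, 7.52 and 7.52 in CTL, 6.87, 6.57 and 6.53 in KD3, and 6.88, 6.53 and 6.70 in KD4, again without overlap with CTL. WNT16 passed the adjusted p in KD4 (-0.81, adjusted p = 0.0154) and not in KD3 (-0.57, adjusted p = 0.0714). The other five measurable ligands, WNT5A, WNT5B, WNT7B, WNT9B and WNT10B, passed in neither, with log2 fold changes between -0.54 and 0.29. WNT5A, the main ligand of ROR2, had 0.23 in KD3 and 0.22 in KD4 (adjusted p = 0.179 and 0.158).

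**Figure D2:**
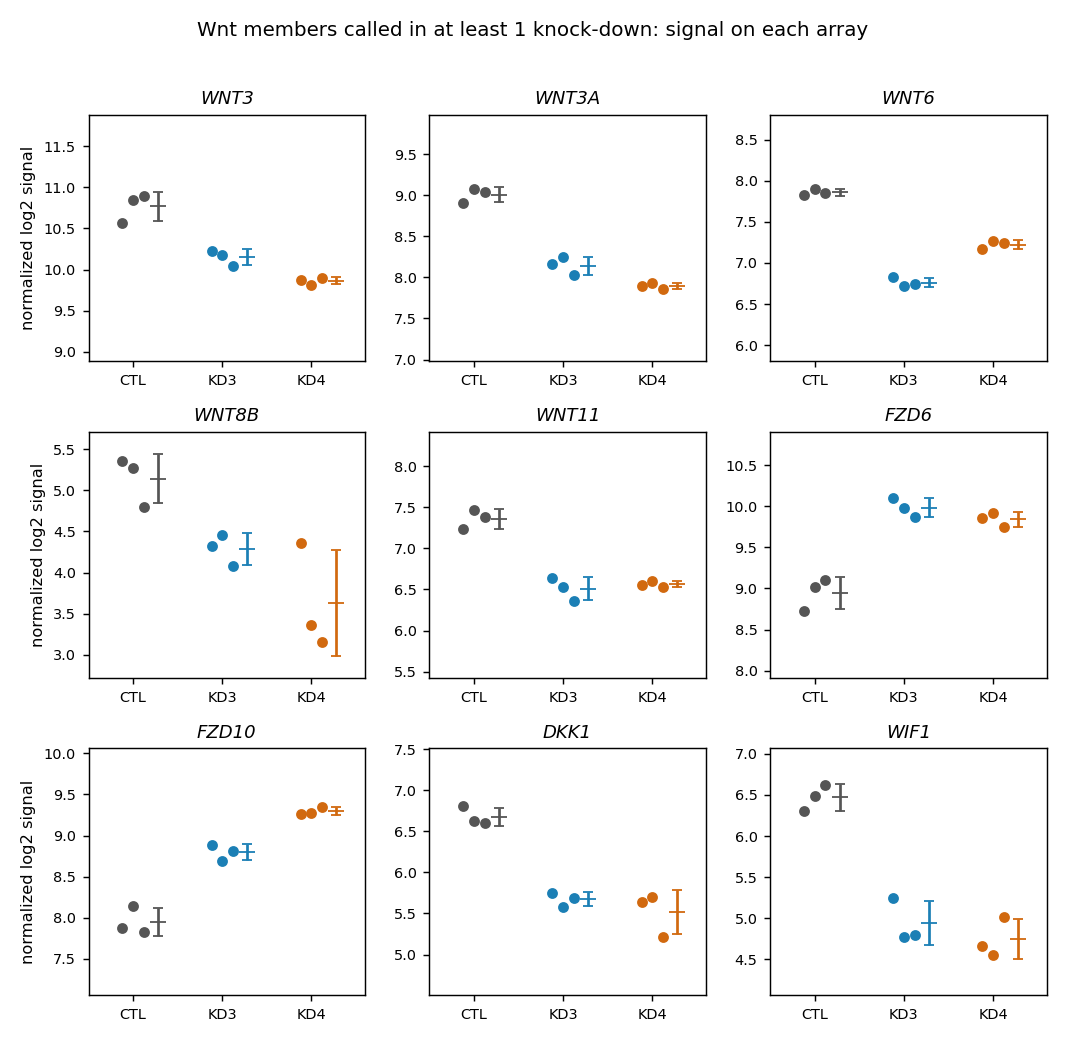
Normalized log2 signal (y axis, each panel spanning the same range of log2 units) on each of the 3 CTL, 3 KD3 and 3 KD4 arrays for the 9 members called in at least 1 knock-down, with bars for the mean and SD. In every panel all CTL arrays lie on one side of all knock-down arrays, and KD4 lies above KD3 in WNT6 and FZD10. The members were chosen by calls on these same arrays, so the separation from CTL goes with the choice. LRP6, not called, was also without overlap in KD3 (limma adjusted p = 0.306).

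The Frizzled receptors, which bind the ligands, moved in both directions. By the adjusted p, 4 of 10 were higher and 2 lower in KD3, and 3 were higher and 3 lower in KD4. Of all genes, 10.4% were higher and 14.8% lower in KD3, and 14.7% higher and 19.8% lower in KD4. FZD10 had log2 signals of 7.87, 8.14 and 7.82 in CTL, 8.88, 8.69 and 8.81 in KD3, and 9.26, 9.28 and 9.35 in KD4. The 3 groups were separate, with KD4 highest. The signal was 1.8-fold that of CTL in KD3 (log2 fold change 0.85, limma adjusted p = 0.000651) and 2.55-fold in KD4 (1.35, adjusted p = 4.79e-05). The KD3 value lay at the fold threshold and fell short of it when any of 4 arrays was left out, namely without KD3 replicate 1 (0.81) or 3 (0.84) and without CTL replicate 1 (0.81) or 3 (0.79). It also did so with scaling to the 75th percentile (0.82) and with the authors' log2 values, where it was just under the threshold.

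FZD6, a Frizzled receptor known from planar cell polarity, had log2 signals of 8.72, 9.02 and 9.10 in CTL, 10.097, 9.98 and 9.87 in KD3, and 9.86, 9.92 and 9.74 in KD4. Every knock-down array was above every CTL array, and KD3 and KD4 overlapped. The signal was 2.05-fold that of CTL in KD3 (log2 fold change 1.04, limma adjusted p = 0.000473, standard error 0.112) and 1.86-fold in KD4 (0.90, adjusted p = 0.000754). Without CTL replicate 1, the lowest CTL array, the KD4 value was 0.78 and no longer reached the fold threshold.

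FZD5, measured with 10 spots on each array, was higher by 0.51 in KD3 and 0.41 in KD4 on the log2 scale (limma adjusted p = 0.00322 and 0.00622). Its log2 signals were 9.48, 9.44 and 9.24 in CTL, 9.96, 9.87 and 9.85 in KD3, and 9.85, 9.74 and 9.80 in KD4. FZD3 passed in KD3 (0.43, adjusted p = 0.00925) and not in KD4 (0.18, adjusted p = 0.156). The direct difference between KD4 and KD3 in FZD3 did not pass the test either (-0.25, adjusted p = 0.162).

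FZD7 and FZD1 fell in both knock-downs. FZD7, a receptor for WNT3 and WNT3A among others, had log2 signals of 11.08, 11.31 and 11.19 in CTL, 10.66, 10.54 and 10.58 in KD3, and 10.43, 10.49 and 10.46 in KD4. Its log2 change came to -0.60 in KD3 and -0.73 in KD4 (limma adjusted p = 0.00112 and 0.000316), and that of FZD1 was -0.44 and -0.50 (adjusted p = 0.0264 and 0.0119). FZD4, the receptor of the vascular ligand norrin, had -0.05 in KD3 (adjusted p = 0.682) and -0.23 in KD4 (adjusted p = 0.0385). FZD2, FZD8 and FZD9 passed in neither knock-down, with log2 fold changes between -0.24 and 0.16.

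Of the co-receptors of the β-catenin branch, LRP6 showed a log2 change of -0.13 in KD3 (adjusted p = 0.306) and fell by 0.47 in KD4 (limma adjusted p = 0.00353). LRP5 did not pass in either (-0.30 and -0.26, adjusted p = 0.166 and 0.194). The receptor tyrosine kinase ROR1 was lower, at -0.27 in KD3 and -0.26 in KD4, and ROR2 at -0.48 and -0.33, all at the adjusted p and below the fold threshold. RYK, a receptor with a WIF-type ligand-binding domain, had -0.08 and -0.12 (adjusted p = 0.601 and 0.368). No member of these groups was called, where 4.44% of all genes in KD3 and 5.59% in KD4 were.

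Among the antagonists, 4 of 7 measurable transcripts fell in each knock-down by the adjusted p, against 14.8% of all genes in KD3 and 19.8% in KD4. WIF1, which binds Wnt proteins directly, showed log2 signals of 6.30, 6.49 and 6.63 in CTL, 5.25, 4.77 and 4.79 in KD3, and 4.67, 4.55 and 5.02 in KD4. No knock-down array reached the lowest CTL array, and KD3 and KD4 overlapped. The signal was 34.6% of CTL in KD3 (log2 fold change -1.53, limma adjusted p = 0.00049, standard error 0.167) and 30.2% in KD4 (-1.73, adjusted p = 0.000212). Within the first slide, which held 2 CTL, 1 KD3 and 2 KD4 arrays, the differences were -1.78 and -1.78, and within the second, with 1, 2 and 1 arrays, -1.28 and -1.64.

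DKK1, the LRP5/6 antagonist and the member with TCF/LEF words in the promoter shown above, had log2 signals of 6.80, 6.62 and 6.61 in CTL, 5.75, 5.58 and 5.69 in KD3, and 5.63, 5.70 and 5.21 in KD4. The decrease was again without overlap. The signal was 49.9% of CTL in KD3 (log2 fold change -1.0, limma adjusted p = 0.00125, standard error 0.131) and 44.8% in KD4 (-1.16, adjusted p = 0.000465). KD4 and KD3 differed by -0.16, with a 95% confidence interval from -0.46 to 0.14. For both WIF1 and DKK1 normexp background correction shrank the change, to -0.70 and -0.57 in KD3 and to -0.78 and -0.64 in KD4, below the fold threshold, with adjusted p of at most 9.46e-05.

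FRZB, which binds ligands through a Frizzled-type domain, was lower, at -0.46 in KD3 and -0.73 in KD4 (limma adjusted p = 0.0296 and 0.00302), with log2 signals of 5.88, 5.86 and 5.69 in CTL, 5.30, 5.30 and 5.44 in KD3, and 5.27, 5.16 and 4.81 in KD4. DKK3, a divergent relative of DKK1, was lower, at -0.39 and -0.33 at its brighter probe. SFRP1, SFRP2 and DKK4 passed in neither knock-down. DKK4 was spread widely, with 0.88 in KD3 (adjusted p = 0.124) and 0.32 in KD4 (adjusted p = 0.536) and a CTL standard deviation of 0.74. No antagonist was higher at the adjusted p, where 10.4% of all genes in KD3 and 14.7% in KD4 were.

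Tested members with a second tested probe were WNT3A, DKK3, ROR1 and ROR2, and in each the dimmer probe did not pass the test in either knock-down. The dimmer probe of WNT3A had log2 signals of 8.63, 8.04 and 8.14 in CTL, 8.14, 8.19 and 8.30 in KD3, and 8.57, 8.40 and 8.58 in KD4. Its log2 change came to -0.06 in KD3 (95% confidence interval from -0.39 to 0.28) and 0.25 in KD4 (from -0.08 to 0.58), intervals that lie apart from those of the brighter probe (from -1.04 to -0.68 and from -1.29 to -0.93). The dimmer probe gave 0.13 and 0.33 in DKK3, 0.25 and 0.11 in ROR1, and -0.25 and 0.48 in ROR2. In ROR2 the KD4 value rested on KD4 replicate 2, with 6.76 against 4.23 and 4.08 on the other KD4 arrays. Which transcripts the probes of a gene detect was not tested, so the decreases of these 4 genes are given for 1 probe each. In WNT3A the brighter probe led through CTL alone (mean 9.01 against 8.27). It was below the other probe in KD3 (8.14 against 8.21) and KD4 (7.89 against 8.52). DKK3 had the same order, with 5.48 against 4.98 in CTL, 5.09 against 5.11 in KD3 and 5.16 against 5.31 in KD4. Taking the brightest probe thus favoured a decrease in WNT3A and DKK3.

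**Figure D3:**
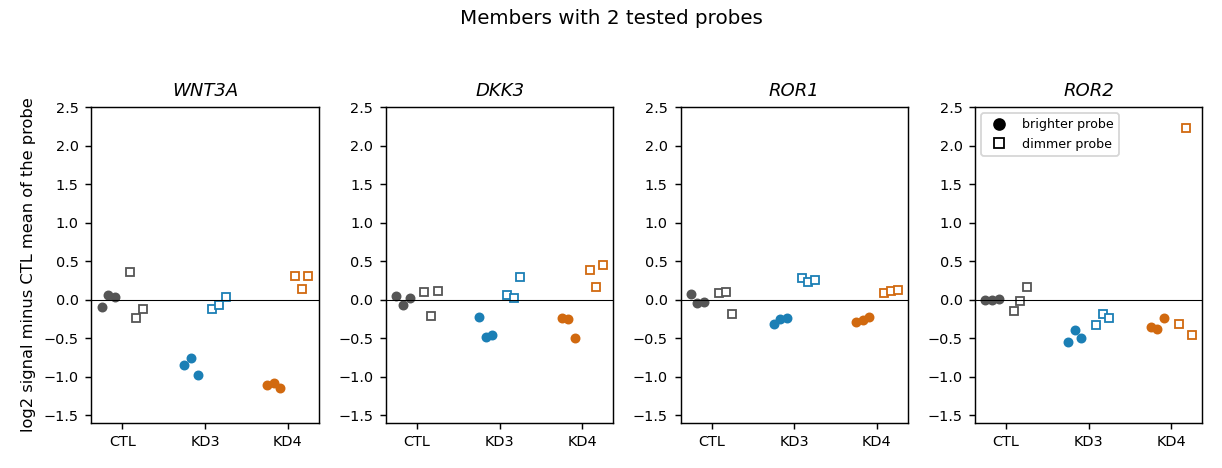
Log2 signal on each array minus the CTL mean of the same probe (y axis) for the 4 members with 2 tested probes, with circles for the brighter and squares for the dimmer probe. In WNT3A the circles of KD3 and KD4 lie near -0.86 and -1.11. The squares of KD3 lie around 0 there, and those of KD4 all lie above 0. In ROR2 a single KD4 square lies far above the rest.

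In the direct comparison of KD4 with KD3 no member was called, where 0.547% of all genes were. By the adjusted p, 2 members differed (3.25% of all genes), both with higher signal in KD4 (1.36% of all genes). WNT6 was higher in KD4 by 0.46 (limma adjusted p = 0.0124), so that its decrease from CTL was smaller there. FZD10 was higher in KD4 by 0.50 (adjusted p = 0.0371), so that its increase was larger there. At the unadjusted p, 9 of the 34 members differed, against 3488 of all 16083 genes. SMCHD1 itself was lower in KD4 than in KD3, at -0.56 (adjusted p = 0.0195), and its part in these differences was not tested.

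The other genes of the pathway were taken from lists of secretion and surface regulators, of intracellular components and of known target genes. Of 27 regulators of ligand secretion and of the cell surface, 26 were measurable (RSPO1 was not), and 3 were called in KD3 and 4 in KD4, all lower, against 3.15% and 4.13% of all genes called lower. APCDD1, a membrane inhibitor that binds ligand and LRP5, had log2 fold changes of -0.85 in KD3 and -1.04 in KD4 (limma adjusted p = 0.000134 and 4.04e-05). GPC3, a glypican that carries Wnt proteins at the surface, had -0.99 and -1.17 (adjusted p = 0.000413 and 0.000142). KREMEN2, a co-factor of DKK1, was called in KD3 with -1.16 (adjusted p = 0.000113) and had -0.80 in KD4 (adjusted p = 0.000575). The Wnt agonist RSPO2 (-0.89, adjusted p = 0.00442) and the LRP-binding antagonist SOSTDC1 (-1.07, adjusted p = 0.00061) were called in KD4 and had -0.24 and -0.06 in KD3. RNF43, a ubiquitin ligase that removes Frizzled receptors from the surface, was higher by 0.50 and 0.45 (adjusted p = 0.0011 and 0.00134). These calls use the brightest probe of a gene. A dimmer probe of CELSR1 also met both thresholds in KD4 (-0.92, limma adjusted p = 0.000127), where its brightest probe had 0.10 (adjusted p = 0.655).

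None of 25 intracellular components, all measurable, was called in either knock-down, where 4.44% of all genes in KD3 and 5.59% in KD4 were. By limma's adjusted p, 6 of the 25 differed in KD3 (25.2% of all genes) and 8 in KD4 (34.5% of all genes). At the unadjusted p, 14 did so in each, against 6289 and 7515 of all 16083 genes. CTNNBIP1, an inhibitor of the contact of β-catenin with TCF factors, had -0.73 and -0.84 at its brighter probe and -0.29 and -0.32 at the dimmer one, which did not pass the test. TCF7L1, mostly a repressor, had -0.65 and -0.58 (adjusted p = 0.0174 and 0.0208). TLE2 (-0.53 and -0.45) was also lower at the adjusted p in both, and CSNK1A1 (0.30 and 0.40) and CSNK1D (0.38 and 0.50) were higher. AXIN1 had -0.28 and 0.09 and the brighter probe of APC 0.23 and 0.26, none of which passed the test. CTNNB1, which encodes β-catenin, had 0.04 and 0.15 at its brighter probe (limma adjusted p = 0.725 and 0.15), while its dimmer probe had -0.02 in KD3 and was higher in KD4 (0.34, adjusted p = 0.0172).

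Of 11 target genes, 9 were measurable (SP5 and TNFRSF19 were not). None was called, where 4.44% of all genes in KD3 and 5.59% in KD4 were. In KD3 7 and in KD4 6 of the 9 passed limma's adjusted p, against 25.2% and 34.5% of all genes, and 8 and 6 the unadjusted p, against 6289 and 7515 of all 16083 genes. The feedback target AXIN2 was lower, at -0.26 in KD3 and -0.25 in KD4 (limma adjusted p = 0.0431 and 0.0429), at its brighter probe, while the dimmer one had -0.05 and -0.10 (adjusted p = 0.877 and 0.677). LEF1, NKD2 and DACT1 were also lower in both, with values between -0.57 and -0.26. The cell cycle genes CCND1 (0.50 and 0.68) and CCND2 (0.56 and 0.34), which many pathways regulate, were higher in both. MYC was higher in KD3 (0.45, adjusted p = 0.00253) and had -0.08 in KD4 (adjusted p = 0.432). The target genes therefore moved in both directions, with medians of -0.17 in KD3 and -0.10 in KD4.

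**Figure D4:**
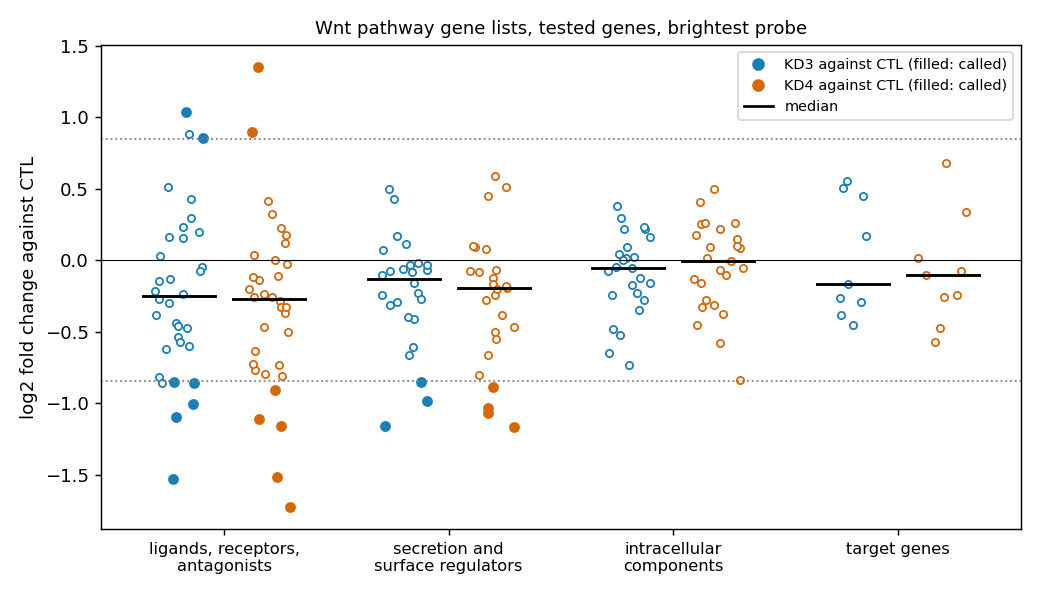
Log2 fold change against CTL (y axis) of each measurable gene in KD3 (blue) and KD4 (orange) for the members and 3 other pathway lists, with filled points for called genes, black bars for the median and dotted lines at a fold of 1.8. Called genes lie among the members and the secretion and surface regulators, and no intracellular component or target gene is called.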

How the data were processed

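The authors labelled total RNA with Cy3 and hybridized it to one-color Agilent arrays, and deposited for each array the intensity of every spot (green processed signal, background-subtracted by Agilent Feature Extraction 10.10). They also deposited log2 values, normalized over the 9 arrays in GeneSpring, which were used as an alternative. The normalization is written as quintile in the methods and was read as quantile. Here, control spots and 260 to 634 outlier spots of 58717 per array were left out, log2 signals were quantile normalized, spots of a probe were averaged, and 21 probes with a missing value were dropped. A probe was well above background on an array where at least 0.5 of its spots were. The groups were fitted over all 9 arrays with limma 3.58.1 (lmFit, eBayes) in R 4.3.3, with Benjamini-Hochberg adjustment over all tested probes, after a test on simulated data. The number of arrays limits the precision. Probes were named by RefSeq accession (GRCh38.p14 annotation); probe coordinates are not given, since the array was designed on an older build. Members called in any comparison are given by array; members past the adjusted p in the same direction in both knock-downs, and those whose probes disagree, with values. Alternatives were other scalings and filters, normexp (offset 50), the authors' values, the methods' t-test, slide or replicate block, and leaving out each array. Members and lists were chosen with earlier results of these data known. The result of 1 marker gene is not reported here.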

Additional observations from a re-analysis of the deposited data

Results flagged for a closer look

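The direct comparison of KD4 with KD3 picked out 2 members and 5 of the other genes listed, by the limma test of that difference itself. Among the members, WNT6 was higher in KD4 than in KD3 by 0.46 on the log2 scale (standard error 0.0657, adjusted p = 0.0124 from limma) and FZD10 by 0.50 (standard error 0.0979, adjusted p = 0.0371). Lower in KD4 were SOSTDC1, a secreted antagonist (-1.01, adjusted p = 0.00798 from limma), WLS, the carrier of Wnt proteins in secretion (-0.47, adjusted p = 0.0282, at the brighter probe, against -0.11, adjusted p = 0.479, at the dimmer one), MYC (-0.53, adjusted p = 0.00851), SMCHD1 (-0.56, adjusted p = 0.0195) and the muscle marker ACTN2 (-0.34, adjusted p = 0.0435). These counts are on the brightest probe of a gene. A dimmer probe of CELSR1, a planar polarity cadherin, was also lower in KD4 than in KD3 (-0.66, adjusted p = 0.00717).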

How the results depend on the processing

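No called value of a member changed direction under the alternatives run, which were computed on its main probe. The second probe of WNT3A, with 0.25 in KD4, was not among them. The 14 called values of 9 members gave 279 alternative values, of which 244 kept the call. Many of these alternatives could not move the fold change, such as other tests, filters or leaving out an array of the uninvolved group. Dropping the fold threshold could not lose a call. In KD3, 7 members were called, against 1 with normexp background correction, 3 with the methods' t-test after Benjamini-Hochberg adjustment and 17 with no fold threshold. Leaving out an array gave 4 to 8, with 4 without KD3 replicate 3 and without CTL replicate 3. In KD4, 7 members were called, against 2 with normexp, 2 with the adjusted t-test and 20 with no fold threshold, and 6 to 9 with an array left out. Between KD4 and KD3, 0 members were called, and 2 with no fold threshold. With normexp fewer genes were called in all (298, 380 and 29 in KD3, KD4 and KD4 against KD3, from 714, 899 and 88), likewise with the adjusted t-test (198, 402 and 0), and more with no fold threshold (4050, 5553 and 523). Of genes called between KD4 and KD3, 51.1% were higher in KD4, 71.2% with 75th percentile scaling and 72.4% with normexp. Same-numbered arrays had deviations correlated between -0.08 and 0.14, over 0.1 in 3 of 9 pairs. Arrays with different numbers had correlations between -0.14 and 0.14. Values this weak do not show that the numbers pair the arrays and cannot exclude it. With the replicate block 8 members were called in KD3 (WNT8B added), 7 in KD4 and 0 between them. With 3 arrays per group, differences in dim transcripts such as DKK4, and WNT8B in KD3, remain undetermined. The size of the WNT8B decrease in KD4 does as well, at -1.51 in the main fit and -0.44 with normexp.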
